A study of Homo sapiens with 6 samples.

Results

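MHC class I presentation genes were examined in RNA that J2, an antibody against double-stranded RNA, pulled down from lysates of OCI-AML2, an established line of human acute myeloid leukaemia. The 9 genes were chosen by symbol: the class I heavy chains HLA-B, HLA-C, HLA-E and HLA-F, the light chain B2M, the peptide transporter subunits TAP1 and TAP2, the loading factor TAPBP and the transcriptional activator NLRC5. Each had 1 of the 60675 gene identifiers in the deposited tables, 8 had counts, and the same 8 were among the 13275 genes left by the expression filter. HLA-F had 0 counts in the 6 libraries. The cells had been transduced with a short hairpin RNA against SUPV3L1 (SUV3), the mitochondrial RNA helicase, in 3 libraries and against PNPT1 (PNPase), the exoribonuclease that works with it, in 3 libraries. The series' design text calls the 3 libraries of a group biological replicates. Each library's title carries a number of its own whose meaning is not given, so it is not known if replicates carry the same hairpin. The p-values measure only the spread between these libraries, which may include a spread between hairpins. No control cells and no RNA from before precipitation were analysed here, so the comparison is SUPV3L1 knockdown against PNPT1 knockdown. A difference in RNA level cannot be told apart from one in precipitation, and fewer cells with a transcript cannot be told apart from less of it per cell.

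MHC class I molecules carry peptides of the cell's own proteins to the surface, where cytotoxic T cells read them and natural killer cells are held back by them. Peptides cut by the proteasome are pumped into the endoplasmic reticulum by the TAP1-TAP2 dimer and are loaded, with the help of tapasin (TAPBP), onto a heavy chain paired with β2-microglobulin (B2M). NLRC5 is recruited to the promoters of class I genes and raises their transcription, and interferons, which cells make on sensing double-stranded RNA, induce most genes of the pathway.

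Depth and library quality differed. Counts assigned to genes ranged from 9378264 to 11361371 in the SUPV3L1 knockdown libraries and from 5852090 to 10464630 in the PNPT1 knockdown libraries. PNPT1 knockdown replicate 3 stood apart: it had the fewest assigned counts and the fewest genes detected (16620, against 20765 to 22393 in the other 5). Alignments to more than 1 place were the larger part of the counted entries in every library, at 80.1% in this one and 65.7% to 71.6% in the others. Entries assigned to a gene were 7.06% in this library and 12.0% to 16.0% in the others. Its TMM scaling factor was 0.669 (0.988 to 1.21 in the others). Clone-named genes of the groups AL353644, AL592188, FP236383 and FP671120 took 37.7% of its counts, against 10.9% to 22.1% in the others, and mitochondrially encoded genes took 11.3%, against 21.7% to 42.0%. The targeted RNAs each had their lower mean in their own knockdown: SUPV3L1 was at 12.2, 12.3 and 9.42 CPM (counts scaled to a common library total, then by TMM) after SUPV3L1 knockdown and at 11.5, 18.2 and 25.8 CPM after PNPT1 knockdown, and PNPT1 at 36.3, 27.6 and 21.4 CPM after SUPV3L1 knockdown against 7.66, 18.9 and 17.1 CPM after PNPT1 knockdown. The groups overlapped for SUPV3L1 and not for PNPT1, as for 613 of all 13275 genes tested in the direction of PNPT1 (4.62%). Without TMM scaling, SUPV3L1 was at 13.0, 12.99 and 9.28 CPM after SUPV3L1 knockdown and at 13.9, 19.9 and 17.3 CPM after PNPT1 knockdown, with no overlap. On that scale the groups did not overlap for 903 of all genes tested (6.8%), in either direction. Neither RNA passed the test (adjusted p = 0.898 for each by edgeR). The 7 myeloid markers looked for (PTPRC, CD33, SPI1, CEBPA, MPO, FLT3 and CSF3R) were all among the tested genes and summed to 776 to 896 CPM (without TMM scaling) after SUPV3L1 knockdown and 469.6 to 1281 after PNPT1 knockdown. The myeloid markers were uneven: after TMM scaling PTPRC averaged 407 CPM over the 6 libraries and MPO 2.47 CPM. All 5 erythroid markers were at 0 in the 6 libraries, and the lists of T cell, B cell, epithelial and fibroblast markers each summed to at most 5.27 CPM in any library. PAX5 of the B cell list and PDGFRB of the fibroblast list were also among the tested genes, averaging 2.15 and 3.12 CPM after TMM scaling.

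RNA of HLA-B, HLA-C, HLA-E and B2M was abundant, and for each gene the range within either knockdown exceeded the difference between the 2 means. The mean of each was lower in SUPV3L1 knockdown, by 0.72 to 0.85 on the log2 scale, but the groups overlapped and 0 of the 8 measured genes passed edgeR's test, as 0% of all genes did. The lowest libraries were replicate 2 of both knockdowns, and PNPT1 knockdown replicate 3 was the highest for all 4 genes. Without that library the difference was at or near 0 for HLA-C and B2M and turned round for HLA-B. Without PNPT1 knockdown replicate 2 the difference was wider for all 4 genes, at -1.27 to -1.08. TAPBP, TAP2 and NLRC5 did not follow this order of libraries, and stayed within a 2.01-fold range over the 6 libraries with TMM scaling and within a 3.22-fold range without it. Levels below are CPM after TMM scaling (trimmed mean of M-values, a correction for library composition), unless FPKM is named.

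HLA-B and HLA-C are the classical heavy chains measured here, which present peptides to CD8+ T cells. HLA-B (ENSG00000234745, chromosome 6, 31269491 to 31357188, minus strand, GENCODE 29 on GRCh38) was at 511, 207 and 609 CPM in SUPV3L1 knockdown replicates 1, 2 and 3, against 449.6, 309 and 1425 CPM in PNPT1 knockdown replicates 1, 2 and 3. PNPT1 knockdown replicate 3 was the highest library and SUPV3L1 knockdown replicate 2 the lowest, and the other 4 were interleaved. The means were 442 ± 210 CPM after SUPV3L1 knockdown and 728 ± 608 CPM after PNPT1 knockdown (SD, n = 3 each). The log2 fold change, SUPV3L1 over PNPT1 knockdown, was -0.72 ± 0.61 (SE), with a 95% interval of -2.07 to 0.64 (adjusted p = 0.898 by edgeR). Without PNPT1 knockdown replicate 3 it was 0.21, so 1 library set the direction. Leaving out PNPT1 knockdown replicate 2 instead gave -1.09.

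HLA-C (ENSG00000204525, chromosome 6, 31268749 to 31272130, minus strand) measured 161, 91.2 and 240.3 CPM after SUPV3L1 knockdown, against 183, 145 and 556 CPM after PNPT1 knockdown. The order of the libraries was close to that of HLA-B, with the same highest and lowest library and with overlapping groups. Its log2 fold change was -0.84 ± 0.55 (SE) over the 6 libraries (95% interval -2.05 to 0.37, adjusted p = 0.898 by edgeR) and -0.0066 without PNPT1 knockdown replicate 3. The HLA-B span in GENCODE 29 reaches into HLA-C on the same strand, and 1.40% of the annotated exon bases of HLA-C are shared with HLA-B.

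HLA-E, a non-classical heavy chain, presents leader peptides of other class I chains to the NKG2 receptors of natural killer cells. HLA-E (ENSG00000204592, chromosome 6, 30489467 to 30494205, plus strand) measured 464, 215 and 663 CPM after SUPV3L1 knockdown, against 605, 365 and 1269 CPM after PNPT1 knockdown. Replicate 2 was again the lowest of each knockdown. The means were 447 ± 224 CPM after SUPV3L1 knockdown and 747 ± 468 CPM after PNPT1 knockdown (SD, n = 3 each), a log2 fold change of -0.74 ± 0.55 (SE; 95% interval -1.96 to 0.48; adjusted p = 0.898 by edgeR). It was -0.13 without PNPT1 knockdown replicate 3. HLA-F (ENSG00000204642, chromosome 6, 29722775 to 29738528, plus strand), the other non-classical chain of the set, was listed at 0 counts and 0 FPKM in all 6 libraries. At these depths a count of 0 allows up to 0.247 to 0.325 CPM after SUPV3L1 knockdown and 0.262 to 0.768 CPM after PNPT1 knockdown (3 counts per library, counting error only). Reads that aligned to more than 1 place or were ambiguous between genes were set aside in the files' summary lines, and 28.5% of the exon bases of HLA-F overlap exons of genes on the opposite strand, so whether it was absent cannot be told.

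The heavy chains are close relatives, which bears on how their reads could be counted. Over the aligned coding sequence of the GENCODE 29 principal transcripts, HLA-B was 92.6% identical to HLA-C, 86.9% to HLA-E and 86.5% to HLA-F. A gapless stretch of 90 coding bases with the fewest differences between HLA-B and HLA-C is shown for the 4 heavy chains because a read from it would match HLA-B and HLA-C but for 1 base. It starts at coding base 420 of HLA-B and HLA-C and at coding base 411 of HLA-E and HLA-F (chromosome 6, reference alleles, 5′ to 3′ on the coding strand), and capitals mark bases that differ from HLA-B:
HLA-B: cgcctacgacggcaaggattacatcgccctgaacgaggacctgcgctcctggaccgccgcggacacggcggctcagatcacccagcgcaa
HLA-C: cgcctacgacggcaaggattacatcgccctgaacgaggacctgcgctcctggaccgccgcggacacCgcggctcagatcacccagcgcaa
HLA-E: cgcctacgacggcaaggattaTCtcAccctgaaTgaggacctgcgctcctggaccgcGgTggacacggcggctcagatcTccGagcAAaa
HLA-F: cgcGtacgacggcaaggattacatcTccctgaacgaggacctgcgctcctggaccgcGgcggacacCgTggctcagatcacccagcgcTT
HLA-C differed from HLA-B at 1 of these 90 bases, HLA-E at 10 and HLA-F at 7. Of all stretches of 50 bases in each principal transcript, 21.0% in HLA-B, 6.79% in HLA-C, 5.76% in HLA-E and 41.7% in HLA-F also occurred on either strand of an annotated transcript of another gene. With stretches of 100 bases the shares were 12.2%, 0.278%, 0.600% and 31.8%. For HLA-B at 100 bases the matching gene was AL671883.2, which overlaps it on the opposite strand. Neither the read length nor the alleles of the cell line were known here, so these shares describe the reference and not the reads lost. HLA-H, a class I pseudogene that shares such stretches with HLA-B, HLA-C and HLA-E, was at 16.1, 10.2 and 23.6 CPM after SUPV3L1 knockdown against 16.7, 17.3 and 61.9 CPM after PNPT1 knockdown. Its log2 fold change was -0.93 ± 0.54 (SE), and -0.0408 without PNPT1 knockdown replicate 3, its highest library.

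B2M, the light chain of every class I molecule, has no such relative: 0 of its 50-base stretches occurred in another gene's transcript, and none of its exon bases overlap an annotated exon of another gene. B2M (ENSG00000166710, chromosome 15, 44711487 to 44718877, plus strand) measured 411, 156 and 569 CPM after SUPV3L1 knockdown, against 522, 234 and 1289 CPM after PNPT1 knockdown. Its highest and lowest libraries were those of HLA-C and HLA-E. The log2 fold change was -0.85 ± 0.64 (SE; 95% interval -2.27 to 0.57; adjusted p = 0.898 by edgeR), and -0.0090 without PNPT1 knockdown replicate 3.

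**Figure D1:**
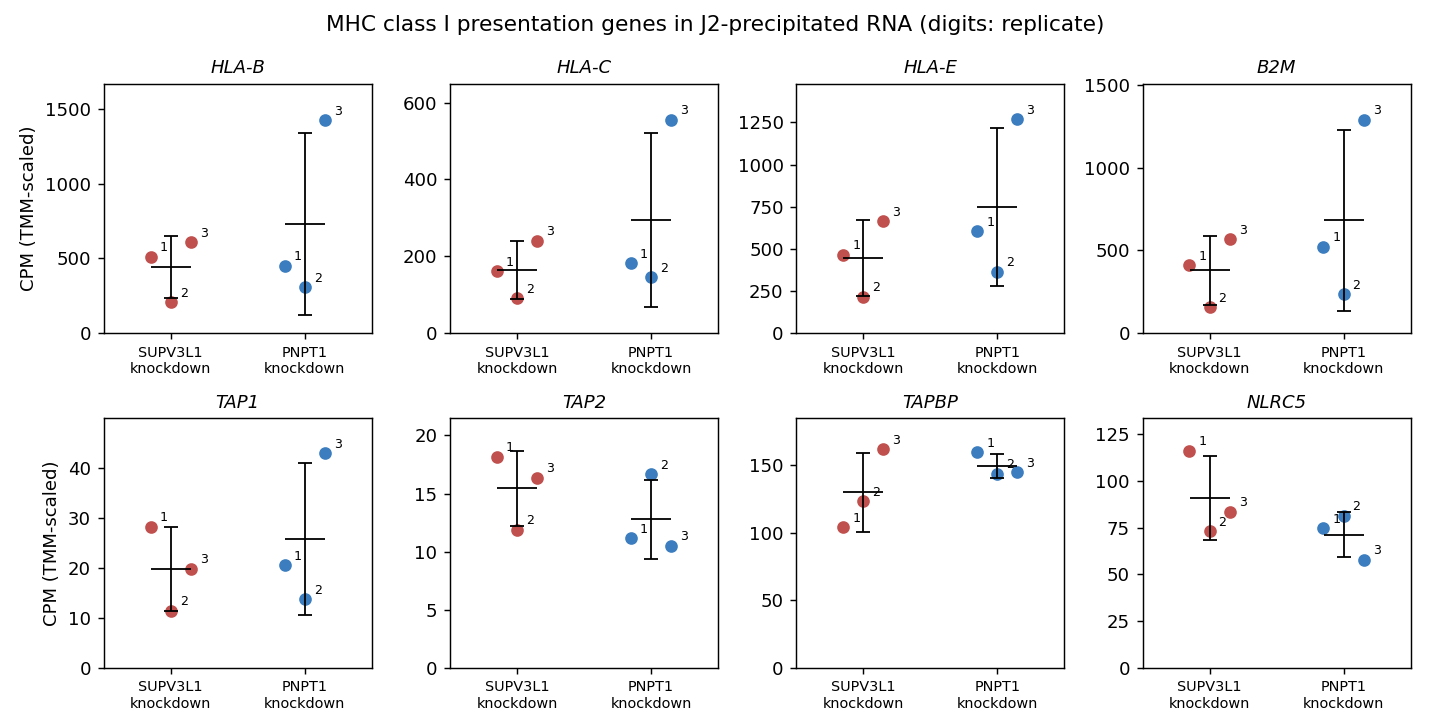
Level of 8 MHC class I presentation genes in each library, in CPM after TMM scaling on axes that start at 0, with SUPV3L1 knockdown on the left and PNPT1 knockdown on the right of each panel. Points are libraries, digits their replicate numbers, and the bar and whiskers the mean ± SD (n = 3). Replicate 2 is the lowest library of each knockdown for HLA-B, HLA-C, HLA-E, B2M and TAP1, and the groups overlap in every panel.

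TAP1 and TAP2 form the peptide transporter. TAP1 (ENSG00000168394, chromosome 6, 32845209 to 32853978, minus strand) measured 28.3, 11.4 and 19.8 CPM after SUPV3L1 knockdown, against 20.6, 13.8 and 43.0 CPM after PNPT1 knockdown. It shared with the heavy chains the highest library, PNPT1 knockdown replicate 3, and the 2 lowest, replicate 2 of each knockdown. Without TMM scaling SUPV3L1 knockdown replicate 1 was its highest library, at 30.3 CPM against 28.7 CPM in PNPT1 knockdown replicate 3. Its log2 fold change was -0.36 ± 0.48 (SE; 95% interval -1.42 to 0.70; adjusted p = 0.918 by edgeR) and was 0.20 without PNPT1 knockdown replicate 3. Of the exon bases of TAP1, 9.49% overlap PSMB8-AS1 on the opposite strand. Of the 50-base stretches of its principal transcript, 15.2% also occurred in a transcript of another gene, so its counts carry this uncertainty too.

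TAP2 (ENSG00000204267, chromosome 6, 32821833 to 32838780, minus strand) measured 18.2, 11.9 and 16.4 CPM after SUPV3L1 knockdown, against 11.1, 16.7 and 10.5 CPM after PNPT1 knockdown. PNPT1 knockdown replicate 3, the highest library for TAP1, was the lowest for TAP2, with 41 counts. The log2 fold change was 0.27 ± 0.36 (SE; 95% interval -0.54 to 1.08; adjusted p = 0.918 by edgeR). Of the 50-base stretches of its principal transcript, 80.2% also occurred in a transcript of another gene, mostly AL669918.1, which overlaps TAP2 on the same strand, so its counts and the comparison with TAP1 are uncertain. The ratio of TAP1 to TAP2 counts was 1.56, 0.960 and 1.21 in SUPV3L1 knockdown and 1.85, 0.827 and 4.10 in PNPT1 knockdown.

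TAPBP encodes tapasin, which holds an empty class I molecule at the transporter and favours tightly binding peptides. TAPBP (ENSG00000231925, chromosome 6, 33299694 to 33314387, minus strand) measured 104, 124 and 162 CPM after SUPV3L1 knockdown, against 159.5, 144 and 145 CPM after PNPT1 knockdown. The groups overlapped. The log2 fold change was -0.20 ± 0.30 (SE; 95% interval -0.88 to 0.47; adjusted p = 0.926 by edgeR).

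NLRC5 (ENSG00000140853, chromosome 16, 56989485 to 57083531, plus strand), the activator of class I promoters, was at 116, 73.1 and 83.6 CPM after SUPV3L1 knockdown, against 74.6, 81.5 and 57.8 CPM after PNPT1 knockdown. Its highest library was SUPV3L1 knockdown replicate 1 and its lowest PNPT1 knockdown replicate 3, the library in which HLA-B, HLA-C, HLA-E and B2M were highest. The log2 fold change was 0.35 ± 0.31 (SE; 95% interval -0.34 to 1.04; adjusted p = 0.898 by edgeR). No exon base of NLRC5 or TAPBP overlaps an annotated exon of another gene.

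**Figure D2:**
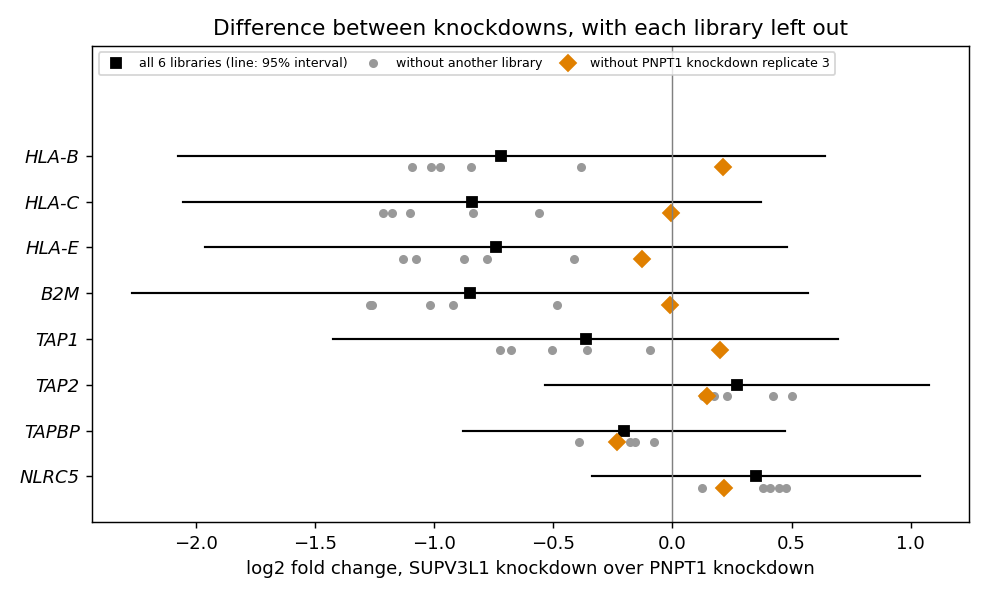
Log2 fold change, SUPV3L1 over PNPT1 knockdown, of 8 genes: black squares and lines give the estimate and its 95% interval over 6 libraries, and the smaller symbols the estimate with 1 library left out. All 8 intervals include 0, and without PNPT1 knockdown replicate 3 (diamonds) HLA-B and TAP1 lie above 0, at 0.21 and 0.20.

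Read over all genes, the set gave no call. Of the 8 measured genes, 0 passed edgeR at an adjusted p of 0.05, where 0 of 13275 genes (0%) passed, and 0 had an unadjusted p under 0.05, where 543 genes (4.09%) had one. DESeq2 called 18 genes (0.136%) and edgeR without the expression filter 187 (0.667%), and neither called any of the 8. The groups did not overlap for 0 of the 8 genes, against 1136 of all genes tested (8.56%). Of the 8, 6 had a log2 fold change below 0, with a median of -0.54, against 6546 of 13275 genes below 0 and a median of 0.01. Without PNPT1 knockdown replicate 3, 4 of the 8 were below 0, with a median of 0.07. The 9 genes together took 0.174% ± 0.0715 of assigned counts after SUPV3L1 knockdown and 0.236% ± 0.0887 after PNPT1 knockdown (SD, n = 3 each). Counting error was small beside that spread: the widest 95% binomial interval (Wilson) was 0.316% to 0.325%, in PNPT1 knockdown replicate 3. As a share of summed FPKM the order of the means was the other way, 0.0260% in SUPV3L1 knockdown and 0.0243% in PNPT1 knockdown.

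What HLA-B, HLA-C, HLA-E, B2M and TAP1 had in common was their profile over libraries. The highest library exceeded the lowest 6.89-fold for HLA-B, 6.09-fold for HLA-C, 5.91-fold for HLA-E, 8.28-fold for B2M and 3.77-fold for TAP1, against 2.01-fold for NLRC5, 1.73-fold for TAP2 and 1.55-fold for TAPBP. The median gene with a mean of 10 CPM or more (8026 genes) had a 2.30-fold range, and 6.27% of them had one at least as wide as that of HLA-C. PNPT1 knockdown replicate 3 was the highest library, and replicate 2 of each knockdown the 2 lowest, for all 5 of these genes, an order shared by 746 of the 8026 genes (9.29%). This order was noticed in the data and was not tested. Part of it rests on the scaling: without TMM, the highest library exceeded the lowest 4.34-fold for HLA-B, 3.84-fold for HLA-C, 3.73-fold for HLA-E, 5.22-fold for B2M and 2.505-fold for TAP1, against 3.22-fold for NLRC5, 2.78-fold for TAP2 and 1.98-fold for TAPBP, with a median of 2.53-fold over the 8026 genes. HLA-B, HLA-C, HLA-E and B2M still had the same highest and the same 2 lowest libraries, as 244 of the 8026 genes (3.04%) did, and TAP1 did not. The log2 fold change of HLA-B was -0.42 and that of TAP1 -0.14 without TMM. Replicate 2 of both knockdowns were also the pair of libraries with the highest correlation across genes (Pearson's r of log2 CPM = 0.971, a description across genes, which are not replicates). With the scaling of PNPT1 knockdown replicate 3 set aside, its share of counts from HLA-B, HLA-C, HLA-E and B2M was still the highest: the libraries had 0.166%, 0.0708% and 0.205% in SUPV3L1 knockdown and 0.212%, 0.115% and 0.303% in PNPT1 knockdown. The part that its few detected genes and its clone-named share have in these levels was not tested.

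Ratios within a library do not depend on depth or scaling. The ratio of HLA-B to B2M counts was 1.24, 1.33 and 1.07 in the SUPV3L1 knockdown libraries and 0.862, 1.32 and 1.11 in the PNPT1 knockdown libraries, a range of 1.54-fold. HLA-E to B2M spanned 1.59-fold, HLA-C to HLA-B 1.49-fold and HLA-E to HLA-B 1.51-fold over the same libraries. The widest ratio among these 4 RNAs was HLA-C to B2M, at 1.78-fold, while the level of each moved over at least 5.91-fold with TMM scaling and at least 3.73-fold without it. TAP1 to B2M spanned 2.196-fold. The ratio of NLRC5 to B2M was 0.283, 0.469 and 0.147 in SUPV3L1 knockdown and 0.143, 0.348 and 0.0449 in PNPT1 knockdown, a 10.5-fold range. TAPBP to B2M spanned 7.06-fold and TAP2 to B2M 9.37-fold. These are ratios of counts, not corrected for gene length, and are compared only between libraries. Ratios with genes outside the set were not computed, so whether steady ratios are particular to these genes was not tested.

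**Figure D3:**
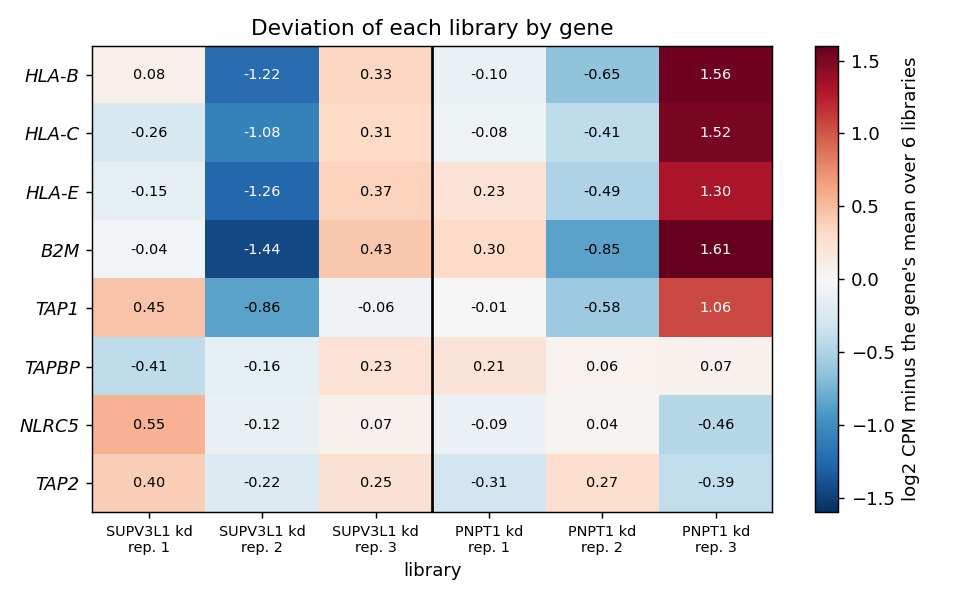
Log2 CPM (after TMM scaling) of each gene in each library minus that gene's mean over 6 libraries, with SUPV3L1 knockdown libraries left of the line and PNPT1 knockdown libraries right of it. HLA-B, HLA-C, HLA-E and B2M lie 1.30 to 1.61 above their means in PNPT1 knockdown replicate 3 and at -1.44 to -1.08 in SUPV3L1 knockdown replicate 2, whereas TAPBP, NLRC5 and TAP2 deviate by at most 0.55.

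Per length, in the authors' deposited FPKM values (fragments scaled to gene length and library depth), HLA-B and HLA-E were the most abundant of the set. HLA-F was listed at 0, which as said above does not tell whether it was absent. HLA-B averaged 150.0 ± 67.2 FPKM over the 6 libraries, HLA-E 141 ± 55.8, HLA-C 76.5 ± 32.3 and B2M 60.8 ± 31.0 FPKM (SD, n = 6). TAPBP followed at 21.7 ± 5.73 FPKM, and NLRC5, TAP1 and TAP2 were at 4.38 ± 1.56, 3.64 ± 1.10 and 3.28 ± 0.864 FPKM (SD, n = 6). HLA-B exceeded HLA-E in 4 of 6 libraries and TAP1 exceeded TAP2 in 4 of 6, differences smaller than the spread over libraries, as were those of HLA-C over B2M and NLRC5 over TAP1. HLA-E lay above HLA-C, B2M above TAPBP and TAPBP above NLRC5 in all 6 libraries. The FPKM of HLA-B were 153, 62.7 and 172 in SUPV3L1 knockdown and 154, 99.8 and 259 in PNPT1 knockdown, and those of B2M 53.6, 20.5 and 73.1 in SUPV3L1 knockdown and 81.0, 33.2 and 103 in PNPT1 knockdown, so replicate 2 of each knockdown was lowest on this scale too.

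**Figure D4:**
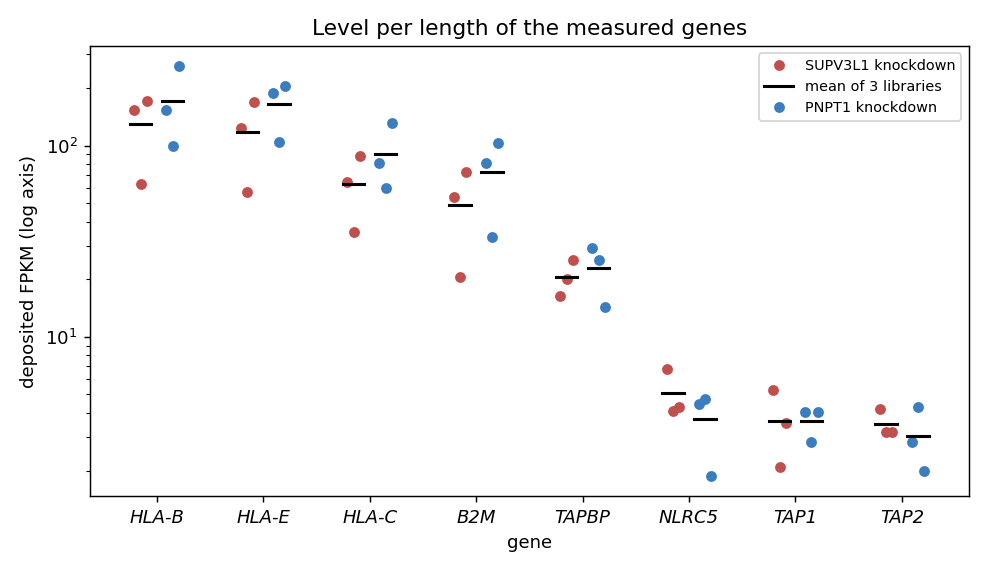
Deposited FPKM of 8 MHC class I presentation genes on a log axis, ordered by their mean over 6 libraries, with SUPV3L1 knockdown left of PNPT1 knockdown for each gene. Points are libraries and bars the mean of 3. HLA-B and HLA-E lead at 150.0 and 141 FPKM, and NLRC5, TAP1 and TAP2 lie at 3.28 to 4.38 FPKM.

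Promoters of the set were compared for the motifs of the class I enhanceosome, on which NLRC5 acts with RFX, CREB-family and NF-Y factors. The 300-base RefSeq promoters (GRCh38.p14, 250 bases before to 50 after the start) of 7 of the 9 genes were searched. Those of HLA-E and NLRC5 were not searched. Those of HLA-B, HLA-C and B2M are shown because they carry the same arrangement; capitals mark TGACG (the core of the X2 box), CCAAT (the Y box) and GAAA repeated after 2 bases of any kind (the core of the interferon-stimulated response element) on either strand, 5′ to 3′ in the direction of transcription, at chr6:31357130-31357429 (HLA-B, minus strand), chr6:31272043-31272342 (HLA-C, minus strand) and chr15:44711267-44711566 (B2M, plus strand):
HLA-B: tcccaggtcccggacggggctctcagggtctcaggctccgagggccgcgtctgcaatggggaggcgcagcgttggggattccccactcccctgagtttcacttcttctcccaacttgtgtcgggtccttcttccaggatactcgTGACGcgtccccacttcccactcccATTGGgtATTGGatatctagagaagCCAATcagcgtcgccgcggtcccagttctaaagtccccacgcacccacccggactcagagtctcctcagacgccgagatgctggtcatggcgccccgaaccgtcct
HLA-C: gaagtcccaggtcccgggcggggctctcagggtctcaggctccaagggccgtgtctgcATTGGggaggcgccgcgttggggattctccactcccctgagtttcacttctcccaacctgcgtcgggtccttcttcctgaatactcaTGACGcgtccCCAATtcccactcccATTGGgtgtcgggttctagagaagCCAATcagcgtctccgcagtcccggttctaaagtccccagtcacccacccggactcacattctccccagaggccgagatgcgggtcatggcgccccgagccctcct
B2M: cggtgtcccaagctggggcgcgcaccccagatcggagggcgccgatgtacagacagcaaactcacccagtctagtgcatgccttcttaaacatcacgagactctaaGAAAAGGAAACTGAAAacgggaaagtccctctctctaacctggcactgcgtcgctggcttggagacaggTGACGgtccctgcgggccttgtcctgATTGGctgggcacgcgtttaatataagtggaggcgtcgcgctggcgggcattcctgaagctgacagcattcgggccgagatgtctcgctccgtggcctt
TGACG began 106 bases before the start in HLA-B, 105 in HLA-C and 75 in B2M. It was followed 25 bases later in HLA-B and HLA-C and 26 bases later in B2M by ATTGG, the Y box read on the other strand. TGACG with ATTGG 20 to 30 bases after it occurred, on either strand, in 157 of 35116 promoters in the table (0.447%), and among those of the 7 genes only in these 3. Singly, CCAAT occurred in 34.6% of all promoters and TGACG in 24.6%. The interferon-stimulated core occurred in 3.57% of all promoters and in those of B2M, HLA-F, TAP1, TAP2 and TAPBP; its copies overlap one another in B2M, TAP1 and TAPBP. The other CCAAT or ATTGG marked in HLA-B and HLA-C lie outside the 20 to 30 bases after TGACG and are not shown to be Y boxes. All of these are matches of the exact letters given, and no binding was measured. Variants of the motifs were not searched, so a promoter without a match may still carry such an element.

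Because the antibody selects paired RNA, the principal transcripts were also searched for self-complementary arms. The longest exact inverted repeat was 9 bases in HLA-B and HLA-F, 10 in B2M, TAP1 and TAPBP, 11 in HLA-C and TAP2, 12 in HLA-E and 13 in NLRC5. The median over the 10942 tested genes with a protein-coding transcript was 12 bases, and 5.30% of those had arms of 20 bases or more. Where no transcript of a gene was marked principal, its longest protein-coding one was used. None of the 9 genes of the set had arms of that length. Longer transcripts have more chances of a match, and pairing with another transcript was not examined. Introns and arms with mismatches were not searched, so longer imperfect pairing would be missed.

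The other steps of the pathway were read from lists of genes written from general knowledge. Of the 45 genes in these 5 lists, 41 were measured, and 0 were called by edgeR (smallest adjusted p = 0.898), where 0% of all genes were called.

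Peptide supply covered the immunoproteasome (PSMB8, PSMB9 and PSMB10), its constitutive counterparts, the proteasome activator PSME1 and PSME2, and the trimming peptidases ERAP1 and ERAP2. Of these, 9 of 10 had a log2 fold change below 0, where 6546 of 13275 genes had one, and the values lay between -0.54 and 0.01 with a median of -0.24. Without PNPT1 knockdown replicate 3, 4 of 10 were below 0 and the median was 0.01, so the count rests on that library. ERAP2, which trims peptides in the endoplasmic reticulum, was at 6.93 ± 1.97 CPM after SUPV3L1 knockdown and 10.0 ± 2.87 CPM after PNPT1 knockdown, with overlap (SD, n = 3 each). The ERAP2 log2 fold change was -0.54 ± 0.42 (SE), and -0.65 without PNPT1 knockdown replicate 3, so it did not rest on that library. PSME2 averaged 17.5 ± 4.42 CPM after SUPV3L1 knockdown and 24.7 ± 12.8 CPM after PNPT1 knockdown. PSMB8, the catalytic subunit encoded beside the TAP genes, was at 47.9, 26.7 and 34.9 CPM after SUPV3L1 knockdown, against 39.0, 33.1 and 64.2 CPM after PNPT1 knockdown, with replicate 2 the lowest of each knockdown. Its log2 fold change was -0.31 ± 0.36 (SE), and 0.0099 without PNPT1 knockdown replicate 3; that of PSME2 was -0.48 ± 0.41 (SE), and 0.0091 without it.

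The folding and loading factors of the endoplasmic reticulum were split, 3 above and 3 below 0 with a median of 0.06. CANX, the lectin chaperone calnexin, was at 423 ± 41.4 CPM after SUPV3L1 knockdown and 544 ± 210 CPM after PNPT1 knockdown (SD, n = 3 each). For CANX the log2 fold change was -0.36 ± 0.38 (SE), and -0.0080 without PNPT1 knockdown replicate 3. HSPA5, the chaperone BiP, averaged 200 ± 62.8 CPM after SUPV3L1 knockdown and 254 ± 198 CPM after PNPT1 knockdown (SD, n = 3 each). The HSPA5 log2 fold change of -0.34 ± 0.51 (SE) turned to 0.515 without that library, so 1 library set the direction. UGGT1, which checks glycoprotein folding, averaged 115 ± 32.9 CPM after SUPV3L1 knockdown and 99.3 ± 30.3 CPM after PNPT1 knockdown, a log2 fold change of 0.21 ± 0.35 (SE) that lay between 0.0147 and 0.47 with 1 library left out.

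Among factors that act on class I promoters, 8 of 13 were below 0, with a median of -0.10. NFYB, a subunit of the Y-box factor NF-Y, was at 9.54, 10.8 and 16.6 CPM after SUPV3L1 knockdown, against 19.9, 15.1 and 38.1 CPM after PNPT1 knockdown. Its groups overlapped with TMM scaling and not without it, where 903 of all genes tested (6.8%) did not overlap in either direction. The NFYB log2 fold change was -0.97 ± 0.42 (SE; adjusted p = 0.898 by edgeR), and -0.52 without PNPT1 knockdown replicate 3. NFKB1, the p50 precursor of NF-κB, was at 30.8, 22.9 and 27.9 CPM after SUPV3L1 knockdown, against 10.6, 22.1 and 14.6 CPM after PNPT1 knockdown. Its groups did not overlap, as for 613 of all genes tested in this direction (4.62%), and the log2 fold change was 0.79 ± 0.36 (SE; adjusted p = 0.898 by edgeR). IRF1, an interferon-induced activator of class I genes, was at 16.2, 7.64 and 4.87 CPM after SUPV3L1 knockdown and at 9.06, 16.4 and 27.6 CPM after PNPT1 knockdown, with overlap. For IRF1 the log2 fold change was -0.87 ± 0.54 (SE), and -0.41 without PNPT1 knockdown replicate 3.

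Of 7 repressors of class I expression, 4 were below 0, with a median of -0.04. EZH2, the methyltransferase of Polycomb complex PRC2, which can silence class I genes in tumours, was at 32.8, 28.3 and 23.4 CPM after SUPV3L1 knockdown, against 50.9, 35.3 and 106 CPM after PNPT1 knockdown. Every SUPV3L1 knockdown library was below every PNPT1 knockdown library, as for 523 of all genes tested (3.94%), and the log2 fold change was -1.18 ± 0.42 (SE; adjusted p = 0.898 by edgeR), and -0.62 without PNPT1 knockdown replicate 3. SUZ12, another PRC2 subunit, was at 75.1, 70.9 and 83.4 CPM after SUPV3L1 knockdown, against 105, 87.8 and 96.7 CPM after PNPT1 knockdown, without overlap on this scale but with overlap when TMM scaling was left out, with a log2 fold change of -0.33 ± 0.28 (SE). EED, the PRC2 subunit that binds the mark, averaged 11.9 ± 1.21 CPM after SUPV3L1 knockdown and 15.1 ± 2.58 CPM after PNPT1 knockdown (SD, n = 3 each), with overlap. EZH2 and NFYB were the only genes of the 5 lists with an unadjusted p under 0.05, which 317 of all genes tested (2.39%) had in the same direction.

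Of 9 other class I and class I-like genes, 5 were measured, with a median of 0.02. MICA, a stress-induced ligand of the natural killer receptor NKG2D, was at 7.70 ± 1.79 CPM after SUPV3L1 knockdown and 13.6 ± 8.62 CPM after PNPT1 knockdown (SD, n = 3 each). PNPT1 knockdown replicate 3 was at 23.0 CPM, and the log2 fold change was -0.80 ± 0.51 (SE) with it and -0.22 without it. MR1, which presents vitamin B metabolites to mucosal-associated invariant T cells, was at 41.8, 34.3 and 37.6 CPM after SUPV3L1 knockdown, against 29.9, 39.3 and 8.19 CPM after PNPT1 knockdown, lowest in PNPT1 knockdown replicate 3. For MR1 the log2 fold change was 0.54 ± 0.47 (SE), and 0.13 without that library. HLA-G had 0 to 3 counts in the SUPV3L1 knockdown libraries and 0 to 5 in the PNPT1 knockdown libraries.

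**Figure D5:**
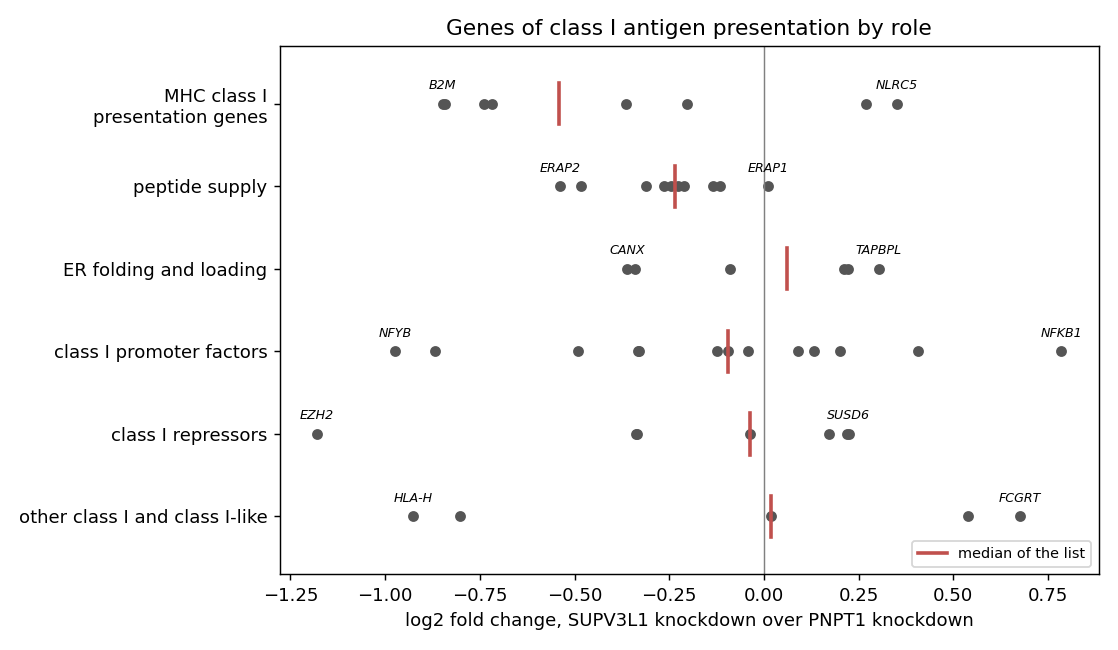
Log2 fold change, SUPV3L1 over PNPT1 knockdown, of the measured genes of class I antigen presentation, 1 point per gene, grouped by role, with the outermost genes named and a bar at each list's median. Medians run from -0.54 for the MHC class I presentation genes to 0.06 for folding and loading factors, and no point passed the test.

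The genes outside the set whose profile over the 6 libraries was most like the mean log2 CPM of the 8 measured genes were CAMLG, the metalloprotease AMZ2, YOD1 and the NudC-domain protein NUDCD2 (Pearson's r = 0.991, 0.989, 0.985 and 0.984 over 6 libraries, given as a measure of likeness). They were picked as the most alike of 8018 genes with a mean of 10 CPM or more, of which 239 (2.98%) had an r above 0.9. In PNPT1 knockdown replicate 3, HLA-B, HLA-C, HLA-E, B2M and TAP1 lay 1.06 to 1.61 above their own mean log2 CPM. TAPBP, NLRC5 and TAP2 lay at 0.07, -0.46 and -0.39 there, so the mean of the 8 describes the former genes more than the latter. CAMLG, a receptor for tail-anchored proteins at the endoplasmic reticulum, was at 19.2, 8.58 and 21.5 CPM after SUPV3L1 knockdown, against 21.0, 13.4 and 44.5 CPM after PNPT1 knockdown, with replicate 2 of each knockdown lowest. YOD1, a deubiquitinase, was at 23.4, 11.9 and 22.4 CPM after SUPV3L1 knockdown and at 22.8, 17.4 and 39.7 CPM after PNPT1 knockdown.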

How the data were processed

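The count files deposited by the authors give raw counts for every Ensembl gene, 1 file a library. Their 5 closing summary lines entered neither totals nor tests. The deposited FPKM table gives values scaled by the authors to gene length and depth, and its columns were matched to libraries by title. The submitters' processing notes name HISAT2 (2.2.1), StringTie (2.1.4), SAMtools (1.14), HTSeq and the build GRCh38. The library kit marks strand, per the labels' protocols, but the strand setting and annotation used in counting were not given in the sources here, so a gene and its antisense partner may not be separated. Counts were tested across all genes with edgeR 4.0.16 in R 4.3.3 (quasi-likelihood, TMM, filterByExpr with a minimum count of 10 and a total of 15, Benjamini-Hochberg threshold 0.05). DESeq2 1.42.0 and limma 3.58.1 (log2 of FPKM + 0.1 or + 1) were alternatives. The fit was also run on simulated counts that had the same dispersion for every gene and no outlying library composition. That run cannot show how the fit does on these libraries. Each SE is the fold change divided by the root of its F. Positions, transcripts and overlaps are from GENCODE 29, which holds 57055 of the 60675 identifiers, and promoters from RefSeq. Replicate numbers follow accession order and do not pair libraries. The genes and lists were chosen with earlier results of these data known. Named genes were the 9 members, the targeted genes, the 3 smallest p-values of each list, and the 5 genes most alike in profile, of which 1 is not reported here; HLA-G was named after its values were seen.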

Additional observations from a re-analysis of the deposited data

How the results depend on the processing

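Over 9 alternatives other than leaving out libraries (scaling, tool, filters, composition, FPKM, summed identifiers and, added after seeing the data, no TMM scaling), the 8 genes kept the direction of their log2 fold change and none was called (edgeR, DESeq2 or limma, Benjamini-Hochberg adjusted p of 0.810 to 0.999 over these alternatives). Over all genes, DESeq2 called 18 and edgeR without the filter 187, against 0. With each library left out, the count ran from 0 to 1, the 1 without SUPV3L1 knockdown replicate 2. Without PNPT1 knockdown replicate 2, 2098 of 13702 genes had an unadjusted p under 0.05 by edgeR, against 543 of 13275 with all 6 libraries. HLA-B, HLA-C, HLA-E and B2M were then at -1.09, -1.18, -1.08 and -1.27 (adjusted p = 0.392, 0.327, 0.354 and 0.329 by edgeR). HLA-B ran from -1.09 to 0.21 and TAP1 from -0.72 to 0.20, both above 0 only without PNPT1 knockdown replicate 3. HLA-C ran from -1.22 to -0.0066, HLA-E from -1.13 to -0.13, B2M from -1.27 to -0.0090, TAP2 from 0.13 to 0.50, TAPBP from -0.39 to -0.0760 and NLRC5 from 0.12 to 0.48. The share of counts from the 9 genes was 0.344% in SUPV3L1 knockdown and 0.432% in PNPT1 knockdown without mitochondrial and clone-named genes in the total, and of summed FPKM it was 0.0260% in SUPV3L1 knockdown and 0.0243% in PNPT1 knockdown. Beyond these, levels, library order and counts of each list were read without TMM scaling and with each library left out, also added after seeing the data; the values stand beside the results. The cause of these shifts was not tested beyond the change of denominator. No paired analysis was possible because replicate numbers follow accession order and link no libraries across groups. With 3 libraries a group, the 95% interval of HLA-B ran from -2.07 to 0.64 on the log2 scale, which limits what can be told.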
